A study of Mus musculus with 13 samples.

Results

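The nuclear genes of respiratory complex I were described as every gene of the deposited table whose name starts with Nduf and does not carry the suffix -ps, a rule that found 49 of 31528 genes. Of these, 36 encode subunits of the complex and 8 are assembly factors of the Ndufaf series. The other 5 are Ndufa4 and Ndufa4l2, whose proteins are not complex I subunits, and 3 processed pseudogenes, Ndufa11b, Ndufb4c and Ndufs6b. The rule left out 4 names with -ps, among them the only entry for Ndufb1. Of the 49 genes, 48 passed the filter on low counts, and Ndufa11b did not.

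Complex I oxidises NADH in the mitochondrial matrix, passes the electrons through a flavin and a chain of iron-sulfur clusters to ubiquinone, and pumps protons across the inner membrane. Its core subunits are shared with bacteria, and the core subunits of the matrix arm are nuclear encoded while those of the membrane arm come from the mitochondrial genome as the mt-Nd genes. The accessory subunits, all nuclear, surround the core, and assembly factors help to build the complex but are not part of it. In the mouse, oxidative phosphorylation becomes more active as the embryo forms a blastocyst, and in diapause the blastocyst pauses its development for a time at a low metabolic rate.

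RNA was measured in 13 libraries of whole blastocysts on a B6D2F1 background, which mixes C57BL/6 and DBA2J, in 6 groups. E4.5 blastocysts were wild type and came from a normal diet (n = 2). The other groups were all at E5.5, so age and treatment cannot be told apart in a comparison with E4.5. OVX blastocysts were wild type and followed ovariectomy, which induces diapause (n = 2), and starvation blastocysts were wild type and are labelled only by the word starvation (n = 2). Depleted KSOM denotes wild-type blastocysts cultured in vitro in the embryo medium KSOM lacking its protein and carbohydrate components (n = 2). Reduced KSOM denotes wild-type blastocysts cultured in KSOM with less arginine, leucine, isoleucine, lysine, glucose and lactate (n = 3), and no group in complete KSOM was analysed here. Targeted OVX blastocysts carried the guides sgNprl2 and sgTsc2, are labelled as a knockout of both genes, and followed ovariectomy (n = 2). The design thus sets ovariectomy, the condition labelled starvation, both culture media and guides against 2 regulators of the nutrient-sensing kinase mTORC1 beside E4.5 blastocysts. The labels name no mothers or cultures, so p-values measure the spread between these samples, which may be technical.

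Libraries held 40678386 to 72125687 counts, and scaling factors from trimmed means (TMM) ran from 0.671 to 1.414. Markers of the blastocyst lineages were found in all 13 libraries, with summed CPM (counts scaled for library size) of at least 84.1 for the epiblast, 3316 for the trophectoderm and 263 for the primitive endoderm. Against E4.5, 1 of 7 epiblast markers was called, Pou5f1, which was lower in OVX (-3.11 ± 0.43, adjusted p = 0.0047), depleted KSOM (-2.26 ± 0.41, adjusted p = 0.0095), reduced KSOM (-2.46 ± 0.36, adjusted p = 0.014) and targeted OVX (-1.81 ± 0.41, adjusted p = 0.037), on the log2 scale of the edgeR fit described below. The median of the 7 was -1.34, -0.19, -0.84, -0.75 and -1.04 from OVX to targeted OVX, and 0, 3, 0, 2 and 3 of them were positive. Of 8 trophectoderm markers, Cdx2 was called lower in OVX (-2.13), reduced KSOM (-1.70) and targeted OVX (-2.24), and Gata3 higher in depleted KSOM (1.33). From OVX to targeted OVX the median of the 8 was 0.57, 0.65, 0.40, 0.05 and 0.23. Positive were 7, 7, 6, 4 and 5 of them. Of 7 primitive endoderm markers, Gata6 was called lower in OVX (-2.10) and Dab2 higher in depleted KSOM (1.93). Their median in the same order of groups was 0.35, 0.57, 0.03, -0.01 and -0.64, with 4, 4, 4, 3 and 2 of the 7 positive. The part of these markers' RNA in the values below was not tested. Muscle markers were high in 4 libraries: the sum of 16 muscle genes other than Mylpf was 1103 CPM for OVX replicate 1 and 818 to 1274 CPM for the 3 reduced KSOM libraries, with no marker at 0. In the other 9 libraries the sum was 4.87 to 41.4 CPM with 4 to 14 of the 16 markers at 0. The 11 neutrophil markers summed to 595 CPM in OVX replicate 1, 138 in OVX replicate 2, 1248 to 1734 in reduced KSOM and 0.64 to 35.3 elsewhere. The 7 erythroid markers summed to 379 CPM in depleted KSOM replicate 1, 354 in reduced KSOM replicate 3, 83.7 in OVX replicate 1, 36.1 and 33.8 in the other reduced KSOM libraries and 0.109 to 17.3 elsewhere. The 9 uterine markers summed to 55.1 to 77.7 CPM in reduced KSOM and 0 to 15.9 elsewhere. Nprl2 measured 11.9 and 18.5 CPM in E4.5, 38 and 36.5 with OVX, 42 and 16.4 with starvation, 26.9 and 32.5 with depleted KSOM, 25.8, 15.8 and 12.7 with reduced KSOM, and 13.9 and 28.6 with targeted OVX. Tsc2 measured 17 and 14.4 CPM in E4.5, 23.3 and 14.1 with OVX, 26 and 15.9 with starvation, 26.7 and 12.6 with depleted KSOM, 15.7, 22.2 and 16.5 with reduced KSOM, and 14.7 and 8.26 with targeted OVX. The Nprl2 and Tsc2 values are on the TMM scale, unlike the marker sums, which use library totals. On the TMM scale both targeted OVX libraries lay below OVX for Nprl2 and overlapped OVX for Tsc2, and both genes overlapped E4.5. On library totals both targeted OVX libraries lay below every OVX and E4.5 library for Tsc2, with the order for Nprl2 unchanged. An edit by a guide need not lower the mRNA. Against E4.5, the median log2 fold change of all 21808 tested genes was 0, 0, -0.09, 0.15 and -0.16 for OVX, starvation, depleted KSOM, reduced KSOM and targeted OVX with TMM scaling, and -0.53, -0.17, -0.41, -0.50 and -0.92 with library totals.

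Promoters are shown for genes whose levels are described below, because many subunits moved together across libraries. RefSeq promoters (assembly GRCm38.p6) matched 40 of the 49 genes, 32 of them subunits and 7 assembly factors, and the 250 bases before the start site were searched on both strands. A gene was counted once if any of its promoters held the motif. The NRF1 motif GCATGCGC occurred in 3 of 32 subunits (9.38%, Ndufa11, Ndufa6 and Ndufa8) and in 1 of 7 assembly factors, Ndufaf4. It occurred in 2.56% of all 27025 genes with a promoter, expressed here or not. The shorter NRF1 palindrome TGCGCA, which can overlap the first motif, occurred in 7 of 32 subunits (21.9%) against 7.36% of all these genes. The ETS motif CCGGAAG, bound by the GABP factor, occurred in 3 subunits (9.38%) and 2 assembly factors (28.6%) against 7.83%. The YY1 motif AAGATGGC (1.83% of all genes with a promoter) and the estrogen-related receptor motif TCAAGGTCA (0.422%) were in none of the subunits or assembly factors. A match is a string in this window and does not show binding. Capitals mark the matched motifs in the following upstream windows, 5′ to 3′ on the strand of the gene. Ndufa11 (chr17:56717512-56717761, plus strand) and Ndufaf4 (chr4:24897833-24898082, plus strand) are shown as holders of the NRF1 motif. Ndufa9 (chr6:126849145-126849394, minus strand) holds the palindrome, and Ndufa1 (chrX:37191239-37191488, minus strand) and Ndufb8 (chr19:44555443-44555692, minus strand) hold none of the 5 motifs. The last 3 genes were among those called higher in targeted OVX, as was Ndufa8, a holder of the NRF1 motif whose window is not shown.
Ndufa11: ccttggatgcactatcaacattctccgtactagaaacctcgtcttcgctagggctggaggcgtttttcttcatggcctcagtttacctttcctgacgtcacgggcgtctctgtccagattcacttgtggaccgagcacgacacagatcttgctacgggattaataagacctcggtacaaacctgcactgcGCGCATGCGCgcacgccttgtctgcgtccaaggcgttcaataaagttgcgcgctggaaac
Ndufaf4: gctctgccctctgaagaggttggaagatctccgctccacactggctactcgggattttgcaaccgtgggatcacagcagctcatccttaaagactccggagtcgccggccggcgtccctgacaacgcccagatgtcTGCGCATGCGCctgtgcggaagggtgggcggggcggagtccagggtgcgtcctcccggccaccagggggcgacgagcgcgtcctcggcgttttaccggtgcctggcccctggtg
Ndufa9: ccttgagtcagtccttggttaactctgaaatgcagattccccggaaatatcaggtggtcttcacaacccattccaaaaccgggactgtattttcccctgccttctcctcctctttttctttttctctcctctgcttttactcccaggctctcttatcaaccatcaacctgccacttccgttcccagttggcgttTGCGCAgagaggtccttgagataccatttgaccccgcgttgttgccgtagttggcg
Ndufa1: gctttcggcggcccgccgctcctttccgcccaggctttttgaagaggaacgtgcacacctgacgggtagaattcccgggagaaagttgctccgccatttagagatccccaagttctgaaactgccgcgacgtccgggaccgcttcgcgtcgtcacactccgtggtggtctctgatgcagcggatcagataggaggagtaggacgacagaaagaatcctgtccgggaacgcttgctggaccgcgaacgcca
Ndufb8: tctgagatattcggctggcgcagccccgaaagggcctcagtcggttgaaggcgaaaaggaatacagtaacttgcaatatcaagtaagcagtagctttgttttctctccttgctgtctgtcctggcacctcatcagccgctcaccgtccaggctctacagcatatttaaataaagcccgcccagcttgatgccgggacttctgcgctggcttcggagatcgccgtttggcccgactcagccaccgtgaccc

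Compared per length, subunit transcripts were far more abundant than those of assembly factors. The median level of the 36 subunits was 268 FPKM (fragments per kilobase of a gene's joined exons, scaled for depth by the authors, mean of the 6 group means), from 9.24 for Ndufs1 to 1188 for Ndufb9. The 8 assembly factors had a median of 16.7 FPKM, from 7.33 for Ndufaf5 to 72.7 for Ndufaf8. Among subunits, the 7 core members had a median of 104 FPKM, with Ndufs7 highest at 265. The accessory subunits were higher on this measure, with medians of 294 FPKM in the matrix arm, 507 in the proximal and 266 in the distal membrane arm. The joined exons can be longer than the spliced transcript, as for Ndufb5 (4987 against 625 bases) and Ndufs1 (8079 against 2626). Levels per spliced length were not computed, and ranks of genes and roles can differ there. Ndufa4, now placed in cytochrome c oxidase, reached 183 FPKM, and Ndufa4l2, its hypoxia-induced paralog, was near 0 at 0.101 FPKM.

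The accessory subunits, as a share of all counts, were high in OVX replicate 1, in all 3 reduced KSOM and in both targeted OVX libraries. The 29 accessory subunits summed to 14258 and 11690 CPM of library totals in E4.5 and to 28711 and 13628 CPM in OVX. They summed to 15114 and 10371 CPM with starvation, 8638 and 10410 with depleted KSOM, 22356, 20243 and 24081 with reduced KSOM, and 27675 and 24375 with targeted OVX. Reduced KSOM and targeted OVX lay above both E4.5 libraries, depleted KSOM lay below them, and OVX and starvation overlapped them. Of the 6 high libraries, 4 were those with muscle and neutrophil RNA, OVX replicate 1 and reduced KSOM. In targeted OVX the muscle markers were at 6.55 and 4.87 CPM with 10 and 11 of 16 at 0, and the neutrophil markers at 17 and 35.3 CPM. The part of this RNA in the subunit values was not tested. The 2 OVX libraries differed from each other by more than any other pair of replicates. The 7 core subunits stayed between 1448 and 2653 CPM in all 13 libraries, both ends being reached outside E4.5 (1827 and 1734). The 8 assembly factors stayed between 273 and 412 CPM. Accessory counts per core count were 7.81 and 6.74 in E4.5, 15.9 and 6.39 with OVX, 5.7 and 7.07 with starvation, 5.38 and 7.19 with depleted KSOM, 12.5, 11.2 and 15.2 with reduced KSOM, and 14.3 and 12.7 with targeted OVX. This ratio within a library does not depend on its scaling. The sum over all 36 subunits was 14754 ± 1881 CPM (SD, n = 2) in E4.5 and 27951 ± 2352 (n = 2) in targeted OVX, 1.89 times as high. With TMM scaling the same ratio was 3.21, and with the deposited FPKM 1.89. For OVX it was 1.57 on totals and 2.76 with TMM, for reduced KSOM 1.62 and 2.62, for starvation 1 and 1.2, and for depleted KSOM 0.749 and 0.935. In whole blastocysts, fewer cells of a type and less RNA per cell cannot be told apart.

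**Figure D1:**
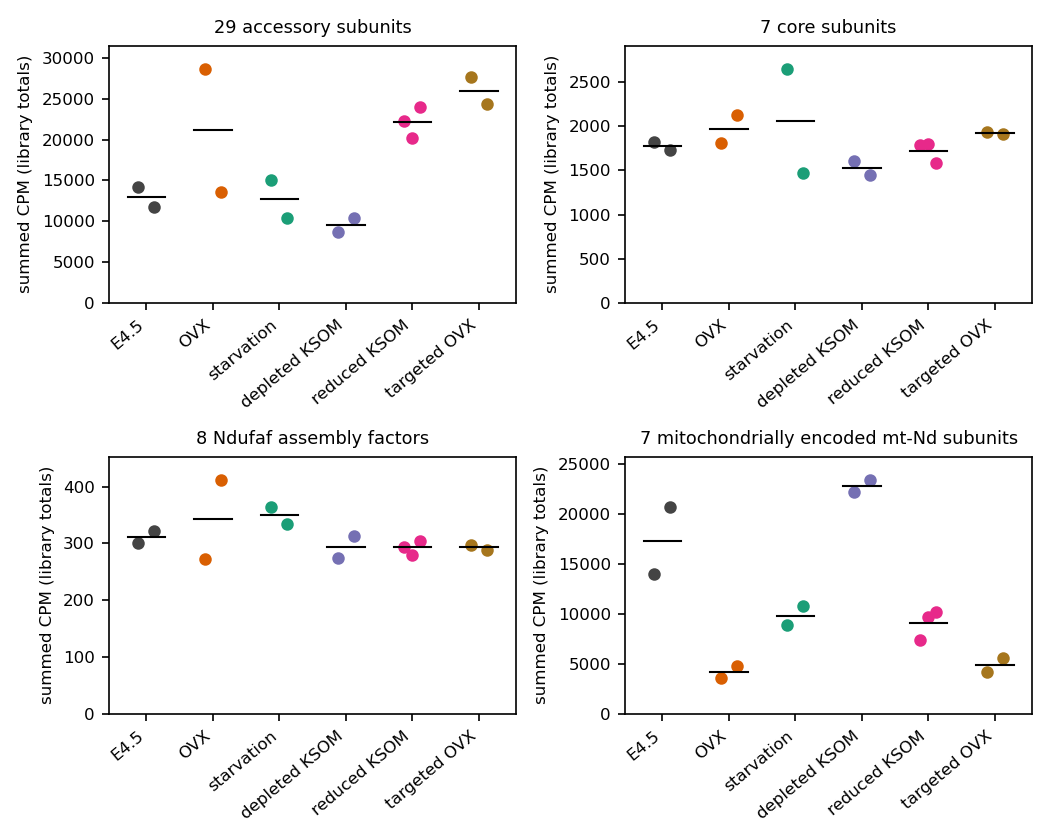
Summed CPM on the scale of library totals (y axis, from 0) by group for 29 accessory subunits, 7 core subunits, 8 assembly factors and 7 mitochondrially encoded subunits. Points are libraries and lines are group means. Accessory subunits reach 20243 to 24081 CPM in reduced KSOM and 24375 to 27675 in targeted OVX, above 14258 and 11690 in E4.5, while core subunits stay between 1448 and 2653.

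In the tests, edgeR quasi-likelihood fits of all 13 libraries with Benjamini-Hochberg adjustment over 21808 genes and a threshold of 0.05, few single members were called. Log2 fold changes are given with their standard error. Values per library are CPM on the TMM scale, with replicates in order. Groups are set above or below E4.5 on that scale unless another is named. The E4.5 libraries had the largest TMM factors (1.344 and 1.414), which lowers their CPM beside library totals. On library totals some of these orders changed, among them those of Ndufs3, Ndufa7 and Ndufaf1. The 5 comparisons with E4.5 share its 2 libraries, so their values are set side by side and not counted as independent. In OVX, 2 of 48 members were called higher, against 1.56% of all genes, and none lower (0.481%). In starvation 1 was higher (1.68%) and none lower (0.532%), and in depleted KSOM 1 was higher (3.29%) and none lower (2.21%). In reduced KSOM 1 was higher (0.77%) and none lower (0.362%). In targeted OVX 6 of 48 were called higher (1.68%) and none lower (0.986%). Members with unadjusted p under 0.05 numbered 30 of 48 for OVX (15.8%), 9 of 48 for starvation (16.8%), 6 of 48 for depleted KSOM (20.9%), 31 of 48 for reduced KSOM (15.2%) and 35 of 48 for targeted OVX (17.6%), with the share of all genes in parentheses, so the starvation and depleted KSOM counts were near or below the share of all genes. With a 12.3% background, 19 of 48 members (39.6%) differed among the 6 groups in a single test of any difference. They were 16 of 36 subunits, 2 of 8 assembly factors and Ndufs6b. By position they were 6 of 10 distal, 6 of 9 proximal, 3 of 10 matrix-arm accessory subunits and 1 of 7 core subunits. That count was 4, 6 and 5 without reduced KSOM replicates 1, 2 and 3, where 1209 to 1293 genes in all were called against 2672. It rose without any 1 of the 4 OVX or starvation libraries, which leaves 1 library in that group.

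The median log2 fold change against E4.5 of the 36 subunits was 1.24 for OVX, 0.30 for starvation, -0.08 for depleted KSOM, 1.24 for reduced KSOM and 1.43 for targeted OVX. For the 8 assembly factors the medians were 0.71, 0.67, 0.21, 0.67 and 1.01. Scaled by library totals, the subunit medians were 0.45, 0.05, -0.40, 0.55 and 0.66. They lay above the median of all genes on that scale except in depleted KSOM, where that median was nearly the same at -0.41. The assembly factor medians on library totals were 0.05, 0.40, -0.12, -0.02 and 0.24, with the sign turned in depleted and reduced KSOM. The OVX median rested on 1 library: it was 0.42 without OVX replicate 1 and 1.81 without OVX replicate 2. The starvation median was -0.33 without starvation replicate 1 and 0.57 without starvation replicate 2. Among subunits, medians were largest for the accessory subunits of the distal arm (1.58 in OVX, 1.43 in reduced KSOM, 1.92 in targeted OVX) and smallest for core subunits (0.88, 0.46 and 0.72). In starvation and depleted KSOM the order was another, with the largest medians for core subunits (0.67 and 0.30, against 0.33 and -0.16 for the distal arm). Differences between these roles were not tested.

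**Figure D2:**
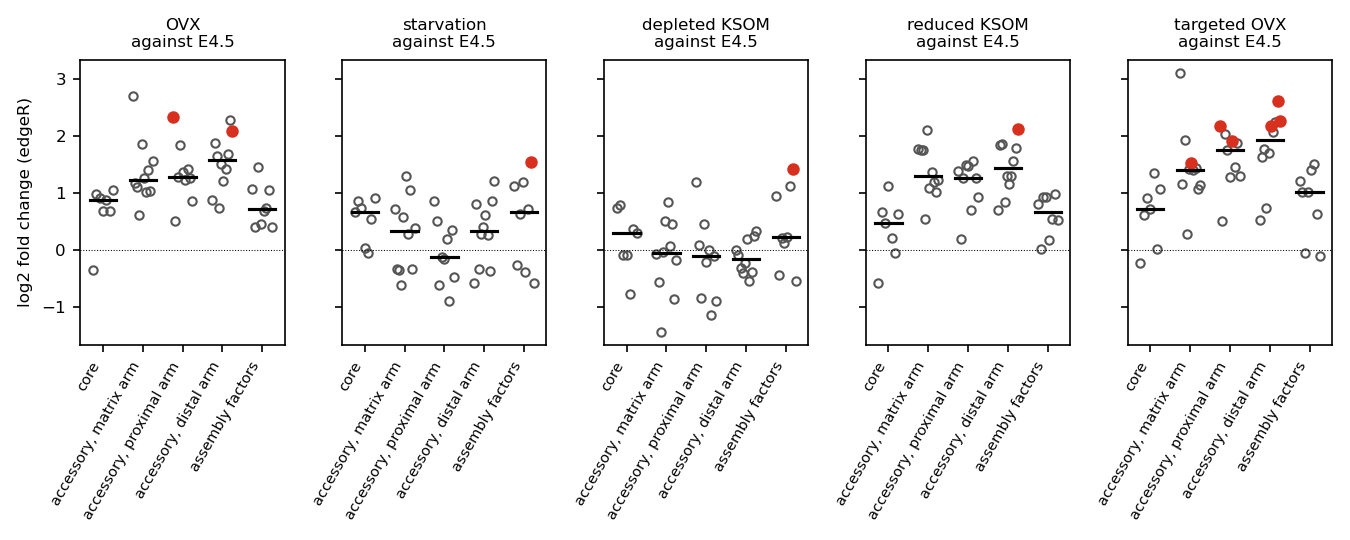
Log2 fold change against E4.5 (y axis) of each tested subunit and assembly factor in the 5 other groups (1 panel each), by role (x axis). Filled red points are called members and bars mark medians. Subunit medians are 1.24, 0.30, -0.08, 1.24 and 1.43 from OVX to targeted OVX.

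Replicates that did not overlap those of E4.5 were counted on the TMM scale. In reduced KSOM 32 of 36 subunits lay above both E4.5 libraries, against 24% of all tested genes, and in targeted OVX 33 did, against 19.3%. In OVX 23 did (21.3%), in starvation 13 (19.8%) and in depleted KSOM 10 (24.5%). Below both E4.5 libraries lay 10 with depleted KSOM (30.5%), 5 with starvation (24.7%), 1 with OVX (24.9%), 1 with reduced KSOM (20.4%) and 0 with targeted OVX (29.6%). With library totals the numbers above were 15 for OVX (10.1% of genes), 10 for starvation (15.1%), 3 for depleted KSOM (18.8%), 25 for reduced KSOM (12.4%) and 25 for targeted OVX (9.03%). The numbers below on that scale were 1 for OVX (36.3%), 11 for starvation (29.8%), 20 for depleted KSOM (36.9%), 5 for reduced KSOM (38.5%) and 4 for targeted OVX (46%). Of the 8 assembly factors, 7, 4, 3, 6 and 6 lay above on the TMM scale and 1, 4, 3, 1 and 3 with library totals, in the same order.

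**Figure D3:**
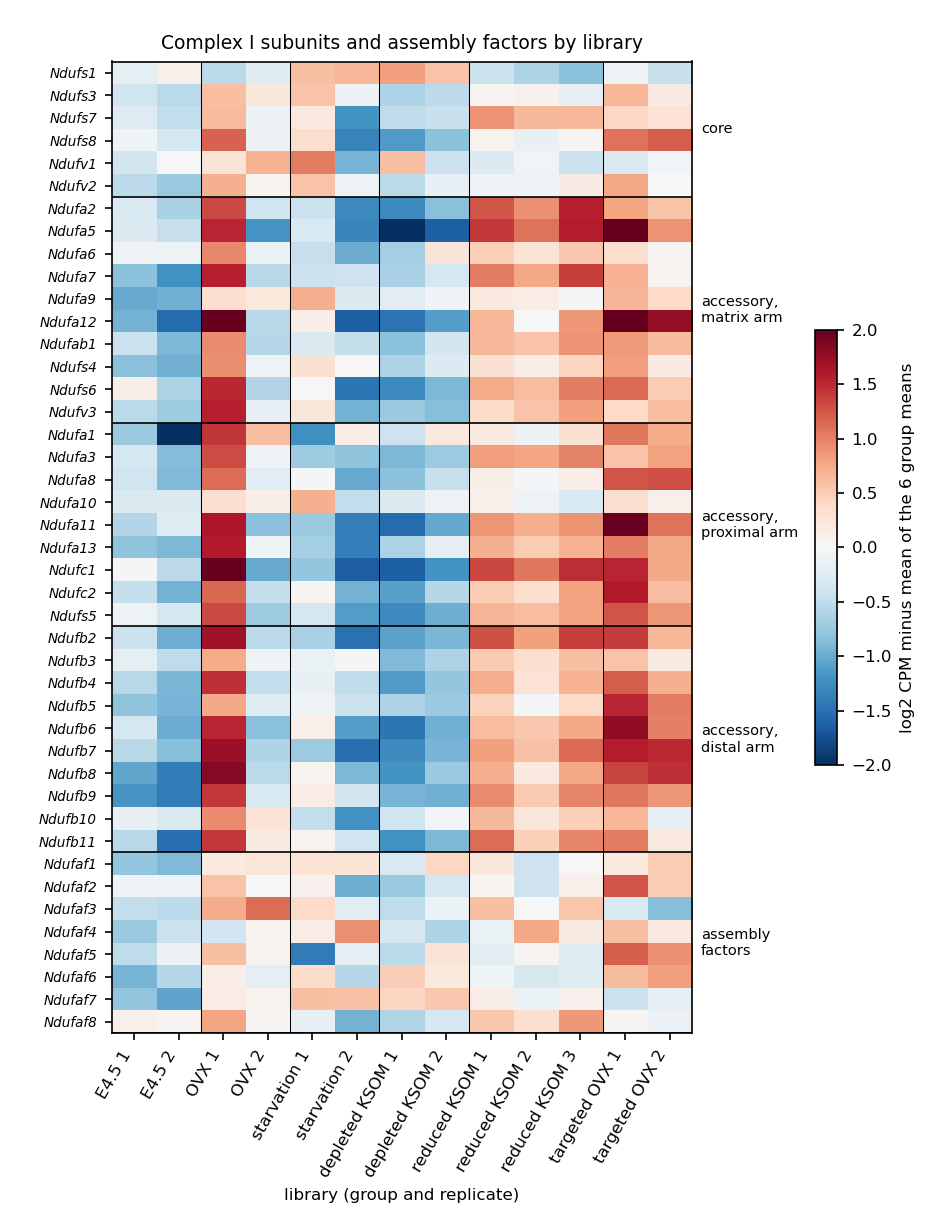
Log2 CPM minus the mean of the 6 group means (colour scale from -2 to 2) for 35 subunits and 8 assembly factors (rows, by role) in the 13 libraries (columns). OVX replicate 1, reduced KSOM and targeted OVX are red across most accessory subunits, and Ndufs1 in the top row is blue in the same libraries.

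Among the core subunits, which carry the flavin and the iron-sulfur clusters, only Ndufs1 differed among the groups (adjusted p = 0.022), and none was called against E4.5. Ndufs1 (ENSMUSG00000025968, chromosome 1, 63143596 to 63176822), the largest matrix-arm subunit, measured 63.6 and 77 CPM in E4.5, 49.3 and 60.8 with OVX, 109 and 114 with starvation, 127 and 107 with depleted KSOM, 53.3, 46.5 and 40.4 with reduced KSOM, and 66.8 and 52.5 with targeted OVX. Starvation and depleted KSOM lay above both E4.5 libraries, and OVX and reduced KSOM below both. The log2 fold changes were -0.35 ± 0.29 (adjusted p = 0.58) in OVX, 0.67 ± 0.30 (adjusted p = 0.28) for starvation, 0.73 ± 0.30 (adjusted p = 0.18) for depleted KSOM, -0.59 ± 0.27 (adjusted p = 0.32) for reduced KSOM and -0.24 ± 0.29 (adjusted p = 0.72) for targeted OVX, where the sign became positive (0.24 and 0.29) with offsets for transcript length. Ndufv1, which binds NADH and the flavin, measured 66.6 and 85.7 CPM in E4.5, 103 and 141 with OVX, 177 and 45.1 with starvation, 132 and 64.2 with depleted KSOM, 71.8, 82.9 and 64.4 with reduced KSOM, and 70.6 and 83.5 with targeted OVX. Its starvation and depleted KSOM replicates lay on either side of E4.5. Ndufv2, which holds an iron-sulfur cluster beside the flavin, measured 257 and 221 CPM in E4.5, 605 and 381 with OVX, 550 and 346 with starvation, 256 and 331 with depleted KSOM, 347, 348 and 417 with reduced KSOM, and 634 and 371 with targeted OVX. Apart from depleted KSOM, every group lay above both E4.5 libraries.

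Ndufs3, a structural subunit of the ubiquinone module, measured 183 and 166 CPM in E4.5, 367 and 284 with OVX, 358 and 223 with starvation, 158 and 168 with depleted KSOM, 248, 257 and 217 with reduced KSOM, and 384 and 270 with targeted OVX, and only depleted KSOM reached down to E4.5. A copy of Ndufs3 elsewhere holds 8.45% of their joint counts. Ndufs7, which carries the terminal iron-sulfur cluster, measured 401 and 342 CPM in E4.5, 749 and 444 with OVX, 549 and 210 with starvation, 340 and 354 with depleted KSOM, 901, 752 and 766 with reduced KSOM, and 641 and 587 with targeted OVX, with OVX, reduced KSOM and targeted OVX above both E4.5 libraries. Ndufs8, another iron-sulfur subunit, measured 249 and 207 CPM in E4.5, 599 and 243 with OVX, 336 and 104 with starvation, 119 and 149 with depleted KSOM, 277, 238 and 274 with reduced KSOM, and 560 and 606 with targeted OVX. Its targeted OVX libraries lay above E4.5, its depleted KSOM libraries below, and the other groups overlapped E4.5.

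Matrix-arm accessory subunits were led by Ndufa9 and Ndufa12. Ndufa9 (ENSMUSG00000000399, chromosome 6, 126821721 to 126849125), which sits where the arms meet, measured 228 and 237 CPM in E4.5, 583 and 533 with OVX, 764 and 375 with starvation, 396 and 437 with depleted KSOM, 526, 511 and 454 with reduced KSOM, and 735 and 605 with targeted OVX and was above E4.5 in all other libraries. It was called in targeted OVX (1.52 ± 0.34, adjusted p = 0.036), 2.88-fold higher. In starvation its log2 fold change was 1.29 ± 0.34 (adjusted p = 0.07). Ndufa12, which replaces its paralog Ndufaf2 late in assembly, measured 251 and 167 CPM in E4.5, 2392 and 331 with OVX, 529 and 156 with starvation, 174 and 226 with depleted KSOM, 764, 484 and 885 with reduced KSOM, and 1950 and 1643 with targeted OVX. OVX, reduced KSOM and targeted OVX lay above E4.5, with OVX replicate 1 far above OVX replicate 2. Its fold change was 2.70 ± 0.77 (adjusted p = 0.092) in OVX and 3.10 ± 0.78 (adjusted p = 0.054) in targeted OVX, the largest of any subunit in both but not called, and the gene differed among the groups (adjusted p = 0.031). Its counts are uncertain, because a processed copy, Ndufa12-ps, with 99.5% identity over 402 bases holds 40.9% of their joint counts.

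Ndufa5, another accessory subunit of the matrix arm, measured 489 and 428 CPM in E4.5, 1703 and 262 with OVX, 480 and 239 with starvation, 149 and 190 with depleted KSOM, 1579, 1252 and 1764 with reduced KSOM, and 2367 and 1102 with targeted OVX. Reduced KSOM and targeted OVX lay above E4.5, depleted KSOM lay below it, and the OVX replicates lay on either side. Its fold change in depleted KSOM (-1.44 ± 0.66, adjusted p = 0.24) was the lowest of any subunit or assembly factor there, while the test of any difference called it (adjusted p = 0.026). Ndufa2, a subunit with a thioredoxin-like fold, measured 509 and 403 CPM in E4.5, 1578 and 478 with OVX, 466 and 259 with starvation, 261 and 352 with depleted KSOM, 1513, 1192 and 1859 with reduced KSOM, and 1085 and 934 with targeted OVX (adjusted p = 0.021 for any difference), with reduced KSOM above all libraries of other groups except OVX replicate 1. Ndufa7 measured 526 and 404 CPM in E4.5, 2744 and 634 with OVX, 690 and 699 with starvation, 592 and 731 with depleted KSOM, 1905, 1594 and 2436 with reduced KSOM, and 1502 and 980 with targeted OVX, above E4.5 in every other library, and its fold change in reduced KSOM was 2.09 ± 0.52 (adjusted p = 0.078). Ndufa6, a LYR-motif protein that binds the acyl carrier protein, measured 238 and 233 CPM in E4.5, 491 and 228 with OVX, 183 and 126 with starvation, 157 and 302 with depleted KSOM, 350, 305 and 365 with reduced KSOM, and 318 and 254 with targeted OVX, and starvation lay below E4.5 (-0.61 ± 0.40, adjusted p = 0.44). The other 4 matrix-arm accessory subunits, Ndufv3, Ndufs4, Ndufs6 and the acyl carrier protein Ndufab1, were not called in any test. In reduced KSOM and targeted OVX all 4 lay above E4.5, with log2 fold changes of 1.02 to 1.36 in reduced KSOM and 1.06 to 1.44 in targeted OVX.

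In the proximal membrane arm, Ndufa1 and Ndufa8 were called. Ndufa1 (ENSMUSG00000016427, chromosome X, 37187588 to 37191163), a small X-linked membrane subunit needed for assembly, measured 210 and 86.9 CPM in E4.5, 951 and 534 with OVX, 151 and 388 with starvation, 265 and 409 with depleted KSOM, 402, 325 and 436 with reduced KSOM, and 734 and 591 with targeted OVX. Every group but starvation lay above both E4.5 libraries, which differed widely from each other. It was called in OVX (2.32 ± 0.53, adjusted p = 0.043), 5-fold higher, and in targeted OVX (2.16 ± 0.52, adjusted p = 0.049), 4.46-fold higher. Ndufa8 (ENSMUSG00000026895, chromosome 2, 36036326 to 36049406), which lies on the intermembrane-space side with paired cysteine motifs, measured 409 and 291 CPM in E4.5, 1172 and 468 with OVX, 529 and 268 with starvation, 305 and 392 with depleted KSOM, 588, 528 and 589 with reduced KSOM, and 1286 and 1317 with targeted OVX. It was called in targeted OVX (1.9 ± 0.45, adjusted p = 0.044), where both libraries were above every other library, and 3.72-fold above E4.5.

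Ndufa13, also known as GRIM-19, measured 383 and 361 CPM in E4.5, 2026 and 631 with OVX, 417 and 261 with starvation, 433 and 586 with depleted KSOM, 1093, 956 and 1088 with reduced KSOM, and 1362 and 1147 with targeted OVX, with starvation alone overlapping E4.5 (adjusted p = 0.025 for any difference). Its fold change was 1.84 ± 0.47 (adjusted p = 0.062) in OVX and 1.75 ± 0.46 (adjusted p = 0.064) in targeted OVX. Ndufa3, a single-helix membrane subunit, measured 281 and 197 CPM in E4.5, 885 and 343 with OVX, 220 and 206 with starvation, 192 and 218 with depleted KSOM, 645, 618 and 714 with reduced KSOM, and 532 and 627 with targeted OVX (adjusted p = 0.016), with OVX, reduced KSOM and targeted OVX above E4.5. Ndufa11, at the hinge of the membrane arm, measured 197 and 249 CPM in E4.5, 914 and 167 with OVX, 177 and 115 with starvation, 102 and 146 with depleted KSOM, 550, 493 and 556 with reduced KSOM, and 1172 and 635 with targeted OVX (adjusted p = 0.025). Starvation and depleted KSOM lay below E4.5, and reduced KSOM and targeted OVX above. Ndufc1, a small membrane subunit, measured 640 and 458 CPM in E4.5, 2607 and 327 with OVX, 383 and 210 with starvation, 211 and 286 with depleted KSOM, 1666, 1364 and 1823 with reduced KSOM, and 1892 and 1112 with targeted OVX (adjusted p = 0.039), in the same order as Ndufa11 relative to E4.5. Ndufs5, on the intermembrane-space side, measured 402 and 342 CPM in E4.5, 1084 and 263 with OVX, 338 and 198 with starvation, 180 and 218 with depleted KSOM, 691, 661 and 756 with reduced KSOM, and 1036 and 795 with targeted OVX (adjusted p = 0.047), again below E4.5 in starvation and depleted KSOM. In depleted KSOM its fold change was -0.90 ± 0.51 (adjusted p = 0.32) and that of Ndufc1 was -1.14 ± 0.68 (adjusted p = 0.34). In starvation the lowest were Ndufc1 (-0.89 ± 0.68, adjusted p = 0.5) and Ndufa11 (-0.62 ± 0.59, adjusted p = 0.62). Ndufa10, a protein with a nucleoside kinase fold, and Ndufc2 were not called in any test, and Ndufa10 spanned only 171 to 396 CPM over the 13 libraries.

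The distal membrane arm held the member called most often. Ndufb9 (ENSMUSG00000022354, chromosome 15, 58933756 to 58939488), a LYR-motif subunit at the far end of the arm that binds the acyl carrier protein, measured 534 and 459 CPM in E4.5, 3231 and 981 with OVX, 1344 and 939 with starvation, 633 and 620 with depleted KSOM, 2320, 1748 and 2385 with reduced KSOM, and 2514 and 2240 with targeted OVX. All 11 libraries of the other groups lay above both E4.5 libraries, but on library totals depleted KSOM overlapped E4.5. Ndufb9 was called in OVX (2.08 ± 0.47, adjusted p = 0.044, 4.24-fold), reduced KSOM (2.11 ± 0.45, adjusted p = 0.045, 4.33-fold) and targeted OVX (2.26 ± 0.48, adjusted p = 0.028, 4.78-fold). The fold change was 1.20 ± 0.46 (adjusted p = 0.21) in starvation. Ndufb5 (ENSMUSG00000027673, chromosome 3, 32736990 to 32751566), a single-helix subunit, measured 204 and 187 CPM in E4.5, 606 and 301 with OVX, 333 and 263 with starvation, 233 and 213 with depleted KSOM, 488, 352 and 465 with reduced KSOM, and 1029 and 724 with targeted OVX, also above E4.5 in every library of the other groups. On library totals its depleted KSOM libraries, at 262 and 231 CPM, lay below E4.5 at 274 and 264. Ndufb5 was called in targeted OVX (2.16 ± 0.37, adjusted p = 0.012), 4.48-fold higher, and gave the smallest adjusted p of any member for any difference (0.013). Ndufb8 (ENSMUSG00000025204, chromosome 19, 44548572 to 44555440), whose protein is a common marker of assembled complex I, measured 606 and 479 CPM in E4.5, 4387 and 853 with OVX, 1307 and 665 with starvation, 541 and 741 with depleted KSOM, 2030, 1426 and 2137 with reduced KSOM, and 3174 and 3445 with targeted OVX. Depleted KSOM alone overlapped E4.5, and the gene was called in targeted OVX (2.61 ± 0.62, adjusted p = 0.045), 6.1-fold higher.

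Ndufb7, with paired cysteine motifs, measured 701 and 566 CPM in E4.5, 3380 and 672 with OVX, 618 and 359 with starvation, 427 and 538 with depleted KSOM, 1813, 1535 and 2250 with reduced KSOM, and 3044 and 2897 with targeted OVX (adjusted p = 0.02), high in OVX replicate 1, reduced KSOM and targeted OVX. Ndufb2 measured 269 and 185 CPM in E4.5, 1175 and 249 with OVX, 231 and 129 with starvation, 172 and 192 with depleted KSOM, 880, 644 and 952 with reduced KSOM, and 957 and 573 with targeted OVX (adjusted p = 0.028), high in the same 6 libraries. Ndufb11, an X-linked subunit, measured 399 and 205 CPM in E4.5, 1552 and 661 with OVX, 616 and 442 with starvation, 252 and 313 with depleted KSOM, 1267, 811 and 1146 with reduced KSOM, and 1192 and 671 with targeted OVX (adjusted p = 0.028), above E4.5 in every group but depleted KSOM. The fold changes in targeted OVX were 2.23 ± 0.58 (adjusted p = 0.062) for Ndufb7, 1.76 ± 0.58 (adjusted p = 0.13) for Ndufb2 and 1.62 ± 0.48 (adjusted p = 0.093) for Ndufb11. The other 4 distal subunits, Ndufb3, Ndufb4, Ndufb6 and Ndufb10, were not called in any test, with log2 fold changes of 0.52 to 2.07 in targeted OVX and -0.55 to 0.00 in depleted KSOM.

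**Figure D4:**
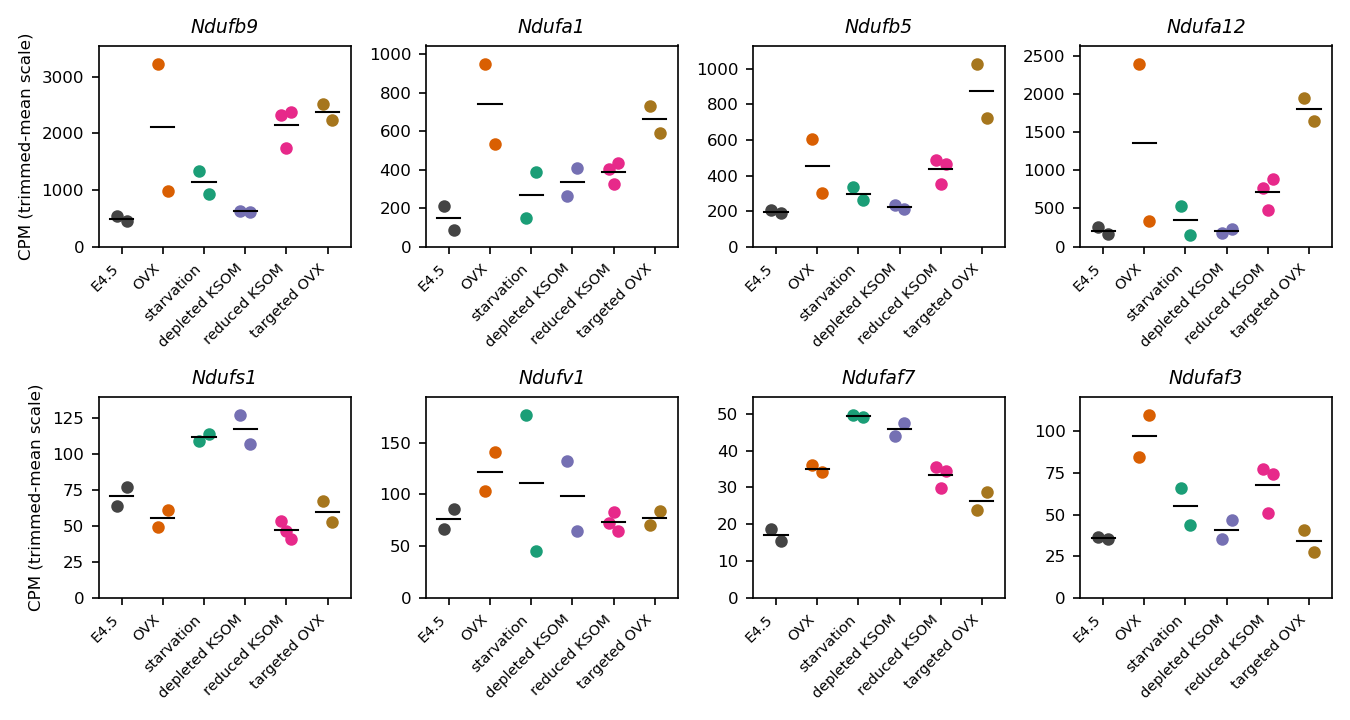
CPM on the TMM scale (y axis, from 0) by group for 8 members; points are libraries and lines are group means. Ndufb9 and Ndufb5 lie above both E4.5 libraries in every other group, Ndufs1 lies above them only in starvation and depleted KSOM, and Ndufaf7 is highest in those same groups.

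None of the 11 calls was kept without E4.5 replicate 2. When only the groups compared were fitted, Ndufaf7 in depleted KSOM and Ndufb9 in reduced KSOM kept their calls, and for OVX, starvation and targeted OVX that fit called no gene at all. The Ndufb5, Ndufb8 and Ndufb9 calls in targeted OVX were kept with library totals, and the other calls apart from Ndufb9 in reduced KSOM were not. For OVX, calls were lost without OVX replicate 1 and gained without OVX replicate 2. For targeted OVX, some were lost without either of its own libraries. Leaving out a library of a group of 2 left 1 there. Without E4.5 replicate 1 the calls over all genes also fell in each comparison with E4.5, so calls lost in such fits say little about the members. The reduced KSOM count of 1 became 0 without any 1 of its own or the E4.5 libraries, where 9 to 46 genes in all were called against 247.

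Of the 8 assembly factors, Ndufaf7 alone was called against E4.5. Ndufaf7 (ENSMUSG00000024082, chromosome 17, 78937136 to 78948052), a methyltransferase that acts early in assembly, measured 18.7 and 15.5 CPM in E4.5, 36.1 and 34.2 with OVX, 49.8 and 49.3 with starvation, 44 and 47.6 with depleted KSOM, 35.6, 29.8 and 34.6 with reduced KSOM, and 24 and 28.8 with targeted OVX, above E4.5 in all other libraries. On library totals OVX and targeted OVX overlapped E4.5. Ndufaf7 was called in starvation (1.54 ± 0.31, adjusted p = 0.024, 2.9-fold) and depleted KSOM (1.42 ± 0.30, adjusted p = 0.019, 2.68-fold), where it was the only member called. The counts of 1 in these comparisons became 0 without either E4.5 library, and in depleted KSOM also without either of its own. Without starvation replicate 2, Ndufaf7 was not called in starvation. In OVX the fold change was 1.04 ± 0.30 (adjusted p = 0.1), in reduced KSOM 0.97 ± 0.28 (adjusted p = 0.12) and in targeted OVX 0.63 ± 0.30 (adjusted p = 0.3). Ndufaf3 and Ndufaf4 act together on the ubiquinone module. Ndufaf3 measured 36.3 and 35.1 CPM in E4.5, 84.8 and 110 with OVX, 65.9 and 43.9 with starvation, 35.3 and 46.6 with depleted KSOM, 77.1, 50.9 and 74.5 with reduced KSOM, and 40.8 and 27.7 with targeted OVX and differed among the groups (adjusted p = 0.042), being highest in OVX (1.45 ± 0.36, adjusted p = 0.058) and at the level of E4.5 in targeted OVX. Ndufaf4 measured 17.4 and 21.9 CPM in E4.5, 22.5 and 31.2 with OVX, 32.9 and 56.1 with starvation, 23.7 and 19.1 with depleted KSOM, 27, 50.7 and 33.6 with reduced KSOM, and 45.1 and 33.9 with targeted OVX, with depleted KSOM alone overlapping E4.5.

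Ndufaf1, part of the membrane-arm assembly complex with Tmem126b, measured 20.3 and 18.8 CPM in E4.5, 40.1 and 41.6 with OVX, 42.5 and 42.4 with starvation, 28.4 and 46.9 with depleted KSOM, 41, 26.1 and 35.4 with reduced KSOM, and 40.1 and 50 with targeted OVX, above E4.5 in all other libraries without a call. Ndufaf2, the paralog that Ndufa12 replaces, measured 40.4 and 40.2 CPM in E4.5, 63.5 and 42.4 with OVX, 45.3 and 21.5 with starvation, 25.4 and 33.8 with depleted KSOM, 43.9, 32 and 46 with reduced KSOM, and 103 and 61 with targeted OVX. Ndufaf6, a factor for early assembly, measured 13.1 and 16.9 CPM in E4.5, 27.9 and 22.3 with OVX, 32.7 and 16.8 with starvation, 35.9 and 29.1 with depleted KSOM, 23.9, 20.1 and 21.2 with reduced KSOM, and 39.4 and 45.6 with targeted OVX, and in depleted KSOM its fold change was 1.12 ± 0.38 (adjusted p = 0.12). For Ndufaf2, OVX and targeted OVX lay above E4.5 and depleted KSOM below. On library totals the order of Ndufaf2 in OVX was reversed, with OVX at 42.6 and 48.5 CPM below E4.5 at 54.2 and 56.8. Targeted OVX, at 78.5 and 53.2 CPM, overlapped E4.5 on that scale. Ndufaf5, which hydroxylates Ndufs7, measured 9.26 and 12.3 CPM in E4.5, 20.5 and 14.1 with OVX, 4.8 and 11.6 with starvation, 9.1 and 16.2 with depleted KSOM, 11.5, 13.9 and 11.1 with reduced KSOM, and 31.2 and 25.8 with targeted OVX, with OVX and targeted OVX above E4.5. Its partner Ndufaf8 measured 68.3 and 66.3 CPM in E4.5, 111 and 64.7 with OVX, 56.7 and 32.8 with starvation, 41.7 and 50 with depleted KSOM, 93, 80.4 and 117 with reduced KSOM, and 65.9 and 58.8 with targeted OVX, with starvation, depleted KSOM and targeted OVX below E4.5 and reduced KSOM above.

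Outside the complex, Ndufa4 measured 242 and 134 CPM in E4.5, 305 and 222 with OVX, 302 and 181 with starvation, 171 and 250 with depleted KSOM, 336, 286 and 396 with reduced KSOM, and 665 and 315 with targeted OVX, with reduced KSOM and targeted OVX above E4.5 and no call. Ndufa4l2 was at 0 to 0.53 CPM, with 8 of 13 libraries at 0, so its fitted fold changes are not given. Ndufs6b, a processed pseudogene, measured 17 and 13.7 CPM in E4.5, 182 and 15.2 with OVX, 18.6 and 14.8 with starvation, 7.52 and 9.09 with depleted KSOM, 95.1, 86.1 and 121 with reduced KSOM, and 137 and 88.5 with targeted OVX and differed among the groups (adjusted p = 0.016). Reduced KSOM and targeted OVX lay above E4.5, with fold changes of 2.72 ± 0.74 (adjusted p = 0.1) and 2.88 ± 0.77 (adjusted p = 0.068). It shares sequence with Ndufs6, in which 94.5% of their joint counts lie, so its counts are uncertain. Ndufb4c ran from 17.1 to 122 CPM and copies Ndufb4, which holds 91.3% of their joint counts. Near-identical copies elsewhere in the genome, at 95% identity or more over at least 100 bases and 50% of the transcript, were found for 6 of 36 subunits. They held more than 10% of the joint counts only for Ndufa12 and Ndufab1 (20.2%). With copies added, the subunit medians became 1.24, 0.29, -0.10, 1.24 and 1.44.

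Against OVX, no member was called by edgeR in any of 4 comparisons, which share the OVX libraries. Members with unadjusted p under 0.05 numbered 2 of 48 in targeted OVX (10.9% of all genes), 25 in starvation (15%), 33 in depleted KSOM (15.9%) and 0 in reduced KSOM (9.48%). Of all genes, edgeR called 0.0367%, 0.225%, 0.679% and 0.202% in the same order. DESeq2 called 1, 12, 26 and 0 members, against 4.04%, 7.47%, 9% and 3.15% of all genes. The subunit medians were 0.04 in targeted OVX, -1.14 in starvation, -1.37 in depleted KSOM and -0.12 in reduced KSOM. They ran from -0.38 to 1.02, from -1.71 to -0.02, from -2.02 to -0.44 and from -0.59 to 0.81 as single libraries were left out. In fits with only 1 OVX library, each of the 4 comparisons called some members, but 1 library gives no spread of its own. In targeted OVX, Ndufaf3 had the lowest fold change against OVX (-1.51 ± 0.36, adjusted p = 0.16), and the groups did not overlap. Ndufs1 was the highest in starvation (1.02 ± 0.30, adjusted p = 0.14) and depleted KSOM (1.08 ± 0.30, adjusted p = 0.1). The lowest were Ndufs6b in starvation (-2.56 ± 0.76, adjusted p = 0.15) and in depleted KSOM (-3.56 ± 0.80, adjusted p = 0.065), and Ndufc1 among subunits in starvation (-2.31 ± 0.70, adjusted p = 0.16). The highest in targeted OVX was Ndufb5 (0.95 ± 0.36, adjusted p = 0.38), and in reduced KSOM Ndufa5 (0.64 ± 0.61, adjusted p = 0.78).

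The mitochondrially encoded subunits were highest in depleted KSOM and lowest in OVX and targeted OVX. These 7 mt-Nd genes, which form the core of the membrane arm, summed to 13945 and 20647 CPM of library totals in E4.5, 3537 and 4735 with OVX, 8878 and 10735 with starvation, 22172 and 23408 with depleted KSOM, 7411, 9648 and 10183 with reduced KSOM, and 4193 and 5551 with targeted OVX. On this scale depleted KSOM lay above E4.5 and every other group below it. With TMM scaling reduced KSOM, at 8894, 10479 and 12464 CPM, overlapped E4.5 at 10382 and 14608. OVX called 3 of 7 lower, namely mt-Nd3 (-2.0 ± 0.42, adjusted p = 0.033), mt-Nd4 (-1.71 ± 0.39, adjusted p = 0.043) and mt-Nd4l (-2.11 ± 0.35, adjusted p = 0.011). Targeted OVX called mt-Nd4 (-1.68 ± 0.39, adjusted p = 0.041) and mt-Nd4l (-2.18 ± 0.35, adjusted p = 0.0091) lower, and depleted KSOM called mt-Nd4l higher (1.41 ± 0.34, adjusted p = 0.032). Against OVX, depleted KSOM called 4 of 7 higher and reduced KSOM 2 of 7, led by mt-Nd4l (3.52 ± 0.37, adjusted p = 0.003) and mt-Nd3 (2.66 ± 0.42, adjusted p = 0.024). Nuclear subunit counts per mt-Nd count were 1.15 and 0.65 in E4.5, 8.63 and 3.33 with OVX, 2 and 1.1 with starvation, 0.462 and 0.507 with depleted KSOM, 3.26, 2.28 and 2.52 with reduced KSOM, and 7.06 and 4.74 with targeted OVX. OVX, reduced KSOM and targeted OVX lay above E4.5 and depleted KSOM below, and this ratio does not depend on scaling.

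Of 13 tested assembly factors with other names, Tmem126b alone was called against E4.5, and it was higher in 4 groups. Tmem126b measured 14.8 and 16.9 CPM in E4.5, 76.7 and 50.7 with OVX, 38.4 and 31.8 with starvation, 50.7 and 60.2 with depleted KSOM, 50.4, 59.2 and 75 with reduced KSOM, and 50.3 and 63.8 with targeted OVX, with fold changes of 2.01 ± 0.35 (adjusted p = 0.014) in OVX, 1.81 ± 0.34 (adjusted p = 0.011) in depleted KSOM, 1.96 ± 0.33 (adjusted p = 0.018) in reduced KSOM and 1.85 ± 0.34 (adjusted p = 0.017) in targeted OVX. In starvation it was 1.15 ± 0.34 (adjusted p = 0.099). Of 11 regulators of nuclear respiratory genes, Gabpb1, a subunit of GABP, was called in targeted OVX (2.03 ± 0.39, adjusted p = 0.021) and no other regulator was called against E4.5. It measured 16.4 and 14.8 CPM in E4.5, 25.9 and 50.7 with OVX, 29.7 and 47.2 with starvation, 34.2 and 29.1 with depleted KSOM, 23.6, 23.2 and 24.6 with reduced KSOM, and 56.8 and 70.7 with targeted OVX.

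Most subunits moved together over the 13 libraries, which share conditions and library traits, so correlations are given as a description. Spearman's rho of a subunit with the median of the other subunits had a median of 0.88 over 36 subunits, with 27 at 0.8 or more, and 0.81 with 20 on library totals. Ndufs1 ran the other way at -0.71 (-0.84 on totals), and Ndufv1 was at 0.00 (-0.48 on totals). For assembly factors the median was 0.37 on the TMM scale and -0.07 on totals. Transcript length moved with these values. Subunit transcripts are short, with a median spliced length of 810 bases against 2073 for all tested genes, and Ndufs1 is the longest at 2626. Across the 5213 genes whose log2 CPM averaged 4 or more, Spearman's rho of length with a library's deviation from the mean of all libraries was -0.32 and -0.04 in OVX, -0.31, -0.19 and -0.29 in reduced KSOM, and -0.41 and -0.32 in targeted OVX. It was 0.08 and 0.31 in E4.5, 0.18 and 0.37 in starvation and 0.38 and 0.29 in depleted KSOM. The 6 libraries with subunits above the mean over libraries, OVX replicate 1, reduced KSOM and targeted OVX, had values of -0.41 to -0.19. With an offset per library for spliced length the subunit medians against E4.5 were 1.29, 0.69, 0.43, 1.0 and 1.57. OVX, reduced KSOM and targeted OVX were again above starvation and depleted KSOM. That offset was fitted over all tested genes, where rho was weaker, from -0.17 in targeted OVX replicate 1 to 0.21 in starvation replicate 2. How much of the trend among the 5213 genes it removed was not tested, so the unchanged order does not show the subunits free of that trend. The part of transcript length in the subunit values was not tested beyond these offsets.

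**Figure D5:**
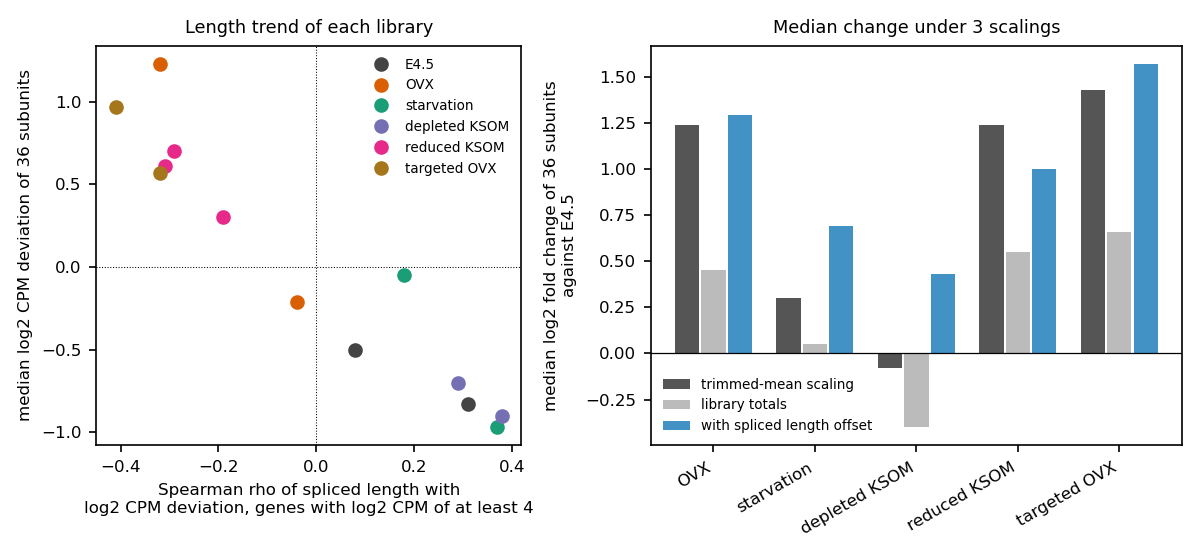
Left, each library's median deviation of the 36 subunits in log2 CPM (y axis) against Spearman's rho of transcript length with the library's deviation over 5213 genes (x axis). Right, the median log2 fold change of the 36 subunits against E4.5 under 3 scalings (bars from 0). Libraries with rho from -0.41 to -0.19 have subunits above the mean, and the medians of OVX, reduced KSOM and targeted OVX exceed those of starvation and depleted KSOM under each scaling.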

How the data were processed

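The libraries came from whole blastocysts and were made with SMART-Seq v4, a kit that amplifies full-length cDNA from very little RNA and adds no molecular identifiers, per the labels' protocols. The deposited table held whole-number estimated counts per gene, which the authors made on GRCm38 with cutadapt 1.9, HISAT2 2.0.4 and StringTie 1.3.4d named in the submitters' processing notes. The annotation and the counting tool are not given in the sources used here. The deposited FPKM values computed by the authors were used for levels per length. Between 27.2% and 34.6% of nonzero counts up to 100 were multiples of 4, and counts were also tested after division by 4. Library totals ran from 40678386 to 72125687 counts.

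Counts were kept with filterByExpr (21808 genes), normalised by TMM (trimmed mean of M values) and fitted with edgeR 4.0.16 quasi-likelihood tests in R 4.3.3, with 1 mean per group over all 13 libraries and 7 residual degrees of freedom. Calls are at an adjusted p under 0.05 (Benjamini-Hochberg over all genes). The common biological coefficient of variation was 0.896. The fit was tested on simulated counts. Each standard error was derived from a fold change with its F statistic. The members and lists were chosen with earlier results of these data known. Values in every library are printed for members called in any test, core subunits, Ndufaf genes, Ndufa4, Ndufs6b and the 3 highest and 3 lowest fold changes per comparison with E4.5 among members whose log2 CPM averaged 4 or more. Other members are given by range and count, and 1 gene is not reported here by name. Copies were searched with blastn 2.17.0 in GENCODE M21 transcripts, and spliced lengths came from the same annotation. FPKM and counts imply gene lengths within 1% of M21 exon unions for 93.6% of 14639 genes. Alternatives were median-of-ratios and library-total scaling, DESeq2 1.42.0, limma 3.58.1 on log2(FPKM + 1), no filter, a mean CPM of at least 5, replicate number as a block, length offsets, only the groups compared and leaving out each library. Same-numbered samples correlated from -0.059 to 0.073 in their deviations, so no strong deviation was shared by number. The labels do not say whether samples were paired.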

Additional observations from a re-analysis of the deposited data

How the results depend on the processing

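Both the calls of single members and the subunit medians depended on the processing. Against E4.5 the counts for OVX, starvation, depleted KSOM, reduced KSOM and targeted OVX were 2, 1, 1, 1 and 6, and 19 for any difference. With library totals they were 0, 0 and 0 for OVX, starvation and depleted KSOM and 3 for targeted OVX, and with median-of-ratios scaling 1 for OVX and 0 for reduced KSOM. Of all 21808 genes, library totals called 287, 230, 980 and 764 in that order, and median-of-ratios scaling 428 and 235. DESeq2 gave 20, 3, 1, 19 and 28 for OVX, starvation, depleted KSOM, reduced KSOM and targeted OVX, and 41 for any difference. Of all 21808 genes it called 2010, 2255, 3264, 1754 and 2567 against E4.5, where edgeR called 247 to 1201. For any difference it called 6538 genes. Its starvation and depleted KSOM counts against E4.5 lay below the share of all genes. Against OVX it gave 1, 12 and 26 for targeted OVX, starvation and depleted KSOM, where of all genes 880, 1629 and 1962 were called. Limma gave 1 for OVX and 4 for reduced KSOM, where of all genes 1834 and 2248 were called. Without a low-count filter the counts were 20, 2, 3, 21 and 26, with 33 for any difference and 1, 16 and 22 against OVX for targeted OVX, starvation and depleted KSOM. Of 31528 genes, that fit called 1470, 1473, 2370, 1226 and 1638 against E4.5, 5972 for any difference and 636, 1091 and 1417 against OVX. The starvation and depleted KSOM counts against E4.5 were near the share of all genes. A mean CPM of at least 5 gave 5 for OVX, 13 for targeted OVX and 1 for depleted KSOM against OVX. Of the 9292 genes kept there, 888, 1039 and 384 were called, so the OVX count was near the share of all genes. Offsets for exon union length gave 6, 4, 0 and 20 for OVX, depleted KSOM, reduced KSOM and targeted OVX, and those for spliced length, chosen after seeing the data, 8, 2, 0 and 22. Of all 21808 genes, exon union offsets called 504, 1282, 191 and 1132, and spliced-length offsets 515, 1338, 194 and 988. Fitting only the groups compared gave 0, 0, 2, 27 and 0, where of all genes 0, 0, 2212, 2462 and 0 were called, so the counts of 0 say nothing about the members. With the replicate number as a block, starvation and reduced KSOM had 0 calls, OVX 2, depleted KSOM 1, targeted OVX 5 and any difference 15. The labels state no pairing by these numbers. In that fit 311, 59, 312, 1008, 380 and 1625 genes in all were called, in the same order. The cause of these shifts was not tested.

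Leaving out 1 library at a time gave 0 to 24 calls for OVX against E4.5, 0 to 1 for starvation, 0 for depleted KSOM and for reduced KSOM without any 1 library, and 0 to 3 for targeted OVX. Against OVX the ranges were 0 to 4 for targeted OVX, 0 to 21 for starvation, 0 to 26 for depleted KSOM and 0 to 3 for reduced KSOM, and for any difference 4 to 33. Calls over all genes also rose or fell in these fits, most of which leave 1 library in a group. The ranges therefore cannot separate a change in the members from a change over all genes.

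Subunit medians against E4.5 stayed positive in OVX (0.39 to 1.41 over the 11 settings without left-out libraries), reduced KSOM and targeted OVX, the lowest coming from library totals or limma. In depleted KSOM the median ran from -0.40 with library totals to 0.43 with the spliced-length offset. For assembly factors, library totals gave 0.05, 0.40, -0.12, -0.02 and 0.24 from OVX to targeted OVX, so the sign turned in depleted and reduced KSOM.

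Of 6552 fold changes of members under alternatives, 0 reversed a call, 63 lost and 368 gained one, and 486 took the opposite sign with no call in either fit. On counts simulated for OVX against E4.5 over 21195 genes, 47.8% of 67 planted 4-fold changes and 100% of 67 planted 16-fold changes were recovered. Reads without molecular identifiers are not independent molecules.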
